A study of Mus musculus with 2 samples.

Results

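The stress keratins of skin, Krt6a, Krt6b, Krt16 and Krt17, were followed in ear skin from imiquimod-treated mice. These 4 genes are a named set of wound and hyperproliferation keratins and were taken by symbol from the 34745 genes of the count table, where all 4 were found. Levels are given in CPM, counts scaled to a common library total, and all 4 members passed the limit of 1 CPM for a measured gene in both libraries. RNA-seq was available for 2 libraries, 1 labelled WT and 1 labelled KAT8-cKO, a conditional knockout of KAT8, a histone acetyltransferase also called MOF. Both groups received 30 mg of 5% imiquimod cream on each ear daily for 3 days, and ears were taken on day 4. Imiquimod activates the receptor TLR7 and gives mouse skin a psoriasis-like inflammation. The promoter or cell type that drives the knockout, and the strain, age and number of animals behind each library, are not stated in the labels. Both specimens were treated, and untreated skin was not analysed here. With 1 library per group there was no test and no p-value, and the intervals below cover counting error only.

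Keratins are the intermediate filament proteins of epithelial cells and form filaments as pairs of a type II and a type I chain. In resting epidermis the basal layer makes mainly KRT5 with KRT14, and cells that leave it switch to KRT1 with KRT10. After wounding and in psoriasis, keratinocytes above the basal layer turn on KRT6 as the type II chain, with KRT16 and KRT17 as its type I partners. KRT6A, KRT16 and KRT17 are also made without injury in parts of the hair follicle such as the outer root sheath and its companion layer, and KRT17 also in the sebaceous gland.

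The type II pair lay side by side on chromosome 15 and the type I pair on chromosome 11 (GRCm38, minus strand, GENCODE M21 annotation). Krt6b (ENSMUSG00000023041, chr15:101676023-101680287) and Krt6a (ENSMUSG00000058354, chr15:101689910-101694307) have 9 exons each and are 9.62 kb apart. Krt16 (ENSMUSG00000053797, chr11:100246091-100248902) and Krt17 (ENSMUSG00000035557, chr11:100256217-100261029) have 8 exons each and are 7.31 kb apart. The coding sequences of Krt6a and Krt6b were identical at 97.6% of aligned positions, with 37 substitutions, and the longest run without a difference was 280 bases. Those of Krt16 and Krt17 were identical at 69.4%. The stretches below show how alike each pair is where its genes are closest and where they differ most. The first is a stretch of 100 coding bases of exon 1 that Krt6a (chr15:101694116-101694215) and Krt6b (chr15:101680091-101680190) share without a difference. The next 2 lines give the exon 1 window in which these genes differ most, at 7 of 100 bases (Krt6a chr15:101693826-101693925, Krt6b chr15:101679801-101679900). For Krt16 and Krt17, the closest window lies in exon 6 and differs at 5 of 100 bases (Krt16 chr11:100246652-100246751, Krt17 chr11:100257475-100257574). Their most different window lies in exon 5 and differs at 30 of 100 bases (Krt16 chr11:100247128-100247227, Krt17 chr11:100257769-100257868). All are on the minus strand, written 5′ to 3′, and capitals mark the bases that differ within a pair.
Krt6a and Krt6b, shared: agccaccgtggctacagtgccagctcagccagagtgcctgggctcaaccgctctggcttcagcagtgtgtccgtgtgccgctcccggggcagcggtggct
Krt6a, most different: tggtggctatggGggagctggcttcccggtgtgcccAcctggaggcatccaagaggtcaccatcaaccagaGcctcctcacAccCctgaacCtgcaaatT
Krt6b, most different: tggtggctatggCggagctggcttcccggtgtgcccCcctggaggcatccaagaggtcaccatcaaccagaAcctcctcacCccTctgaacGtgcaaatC
Krt16, closest: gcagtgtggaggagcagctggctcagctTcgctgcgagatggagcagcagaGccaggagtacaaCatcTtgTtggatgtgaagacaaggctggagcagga
Krt17, closest: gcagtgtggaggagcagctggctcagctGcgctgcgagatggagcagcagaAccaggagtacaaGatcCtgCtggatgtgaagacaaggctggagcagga
Krt16, most different: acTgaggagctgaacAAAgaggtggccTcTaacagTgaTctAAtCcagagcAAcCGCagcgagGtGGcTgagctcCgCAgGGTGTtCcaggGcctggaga
Krt17, most different: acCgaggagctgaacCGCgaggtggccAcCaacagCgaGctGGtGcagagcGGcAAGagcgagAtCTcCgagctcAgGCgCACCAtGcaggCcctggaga

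The share of sequence found in other genes differed between the members. Of all stretches of 75 bases in the main transcript, 56.0% for Krt6a, 39.6% for Krt6b and 28.9% for Krt16 also occurred in an annotated transcript of another gene, and 0% for Krt17. At 150 bases the shares were 30.3%, 18.8%, 18.4% and 0%. At 50 bases they were 62.0%, 50.1%, 37.6% and 4.0%, so Krt17 was free of shared stretches only at the longer lengths. The labels state neither the read length nor how reads with several matches were handled. For Krt6a the main sources were Krt6b and an antisense RNA that overlaps 471 of its exon bases. That RNA was not among the counted genes. For Krt16 the main source was the pseudogene Gm11597. At 75 bases Krt16 also shared 6.44% of its stretches with Krt14, and Krt6a 4.54% with Krt5. Krt14 and Krt5 had more counts than these members in each library, and their part in the members' values was not tested. Gm11597 held 3 counts in the WT-labelled library and 2 in the other, against 50800 and 21390 for Krt16. Sums of Krt6a and Krt6b are given beside the single genes for this reason.

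The libraries held 12179608 and 13727524 counts on genes and 19131 and 19143 genes with a count. Kat8 itself did not fall with the label, with 219 counts in the WT-labelled library and 351 in the other (ratio 1.27, 95% interval 1.07 to 1.51). The value covers the whole gene and all cells of the ear, so it checks the label only weakly, and the libraries are named by their labels. Xist had 11891 and 6 counts and the Y-linked Eif2s3y 0 and 838. This is a female pattern in the WT-labelled library and a male pattern in the other. Sex and genotype label therefore cannot be told apart for any difference given below. Values below are CPM scaled by trimmed mean of M values (TMM) factors. Skin identity was plain in both libraries, with the basal keratins Krt5 and Krt14 together at 21189 and 24678 CPM.

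Krt6a, Krt6b and Krt16 were lower in the KAT8-cKO-labelled library, by 2.36-fold to 3.79-fold, while Krt17 was 1.38-fold higher. This split held against each whole-library total that was tried and against the summed counts of Krt5 and Krt14. Krt17 was not higher against Krt5 alone. Against the summed counts of Krt1 and Krt10, Krt6a was higher and Krt16 nearly equal. A gene was counted as higher or lower at a 2-fold difference (log2 ratio of CPM + 1 of at least 1 in size). By that rule 3 of 4 members were lower and none higher, against 8.63% of 15240 measured genes lower and 4.56% higher. Among the 69 genes whose mean level reached 1000 CPM, to which all members belong, 20.3% were lower and 4.35% higher. The median log2 ratio over all measured genes was 0.01. In bulk tissue, fewer cells of a type and less RNA per cell cannot be told apart.

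Krt6a, the more abundant KRT6 gene here, had 74492 counts in the WT-labelled library and 39763 in the KAT8-cKO-labelled library. This was 6466 and 2739.9 CPM, 2.36-fold lower in the latter (interval 2.33 to 2.39). Its near copy Krt6b had 49218 and 16339 counts, or 4272 and 1126 CPM, which was 3.79-fold lower (interval 3.73 to 3.86). Both type II genes were thus lower, and Krt6b by more. Within a library, Krt6b had 0.661 counts for each count of Krt6a in the WT-labelled library (interval 0.653 to 0.668) and 0.411 in the other (interval 0.403 to 0.418). The sum of both genes, which does not depend on how shared reads were divided between them, was 2.78-fold lower (10738 and 3866 CPM, interval 2.75 to 2.81).

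Krt16, the type I keratin that marks hyperproliferative epidermis, had 50800 and 21390 counts. This was 4409 CPM in the WT-labelled library and 1474 CPM in the KAT8-cKO-labelled library, 2.99-fold lower (interval 2.94 to 3.04). Krt17, the other type I stress keratin, had 14437 and 25174 counts, or 1253 and 1735 CPM (ratio 1.38, interval 1.36 to 1.41). It was the single member that was higher in the KAT8-cKO-labelled library, and it did not reach 2-fold. Of all measured genes, 82.1% had a log2 ratio below that of Krt17, and 5.73%, 3.22% and 1.86% had one below those of Krt6a, Krt16 and Krt6b. The neighbouring genes Krt16 and Krt17 therefore lay on opposite sides of the middle of all genes.

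**Figure D1:**
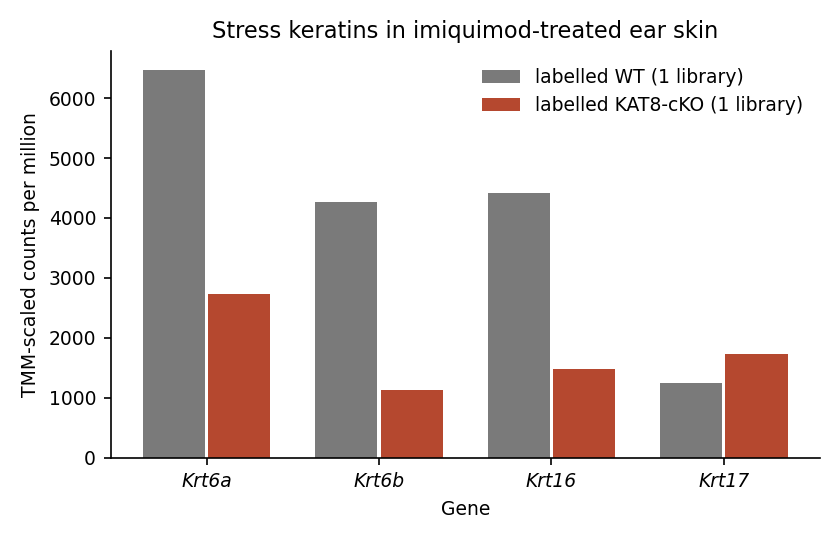
Bars give TMM-scaled CPM on a linear axis from 0 for each of the 4 stress keratin genes, with 1 library per label and no replicate error. Krt6a, Krt6b and Krt16 stand at 4272 to 6466 CPM in the WT-labelled library and at 1126 to 2739.9 CPM in the other, and Krt17 alone is higher in the KAT8-cKO-labelled library.

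The order of the members changed between the libraries. Levels of different genes were compared as CPM per kilobase of exon. In the WT-labelled library, Krt16 (2818) and Krt6a (2674) were highest, followed by Krt6b (1911) and, well below, Krt17 (808). In the KAT8-cKO-labelled library, Krt6a (1133) and Krt17 (1118) were level, followed by Krt16 (942) and Krt6b (504). Krt16 had 3.52 counts for each count of Krt17 in the WT-labelled library (interval 3.45 to 3.58) and 0.850 in the other (interval 0.834 to 0.865), a 4.14-fold difference in their ratio that needs no library total. The spread between animals behind these orders is not known.

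The balance of type II to type I stress keratin RNA also differed. Per kilobase, Krt6a with Krt6b stood at 4586 and Krt16 with Krt17 at 3626 in the WT-labelled library, a ratio of 1.26. In the KAT8-cKO-labelled library the sums were 1637 and 2060.2, a ratio of 0.795. In counts without division by length, type II exceeded type I in both libraries (123710 against 65237, and 56102 against 46564). Type II was thus lower relative to type I in the KAT8-cKO-labelled library on both scales, but which type was in excess there depended on the scale. The share of sequence found in other genes differs between these members, as given above, and its part in these ratios was not tested. For the basal pair, Krt5 over Krt14 went the other way, from 0.547 to 0.837 per kilobase. For the suprabasal pair, Krt1 over Krt10 was 0.530 and 0.709.

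As a share of all counts on the 54 keratin genes, stress keratins took 37.8% in the WT-labelled library (exact interval 37.7% to 38.0%) and 19.9% in the KAT8-cKO-labelled library (19.8% to 20.0%). This share does not use the library total, which muscle, fat or blood in a specimen can move. Krt6a took 14.9% and 7.70% of keratin counts, Krt6b 9.85% and 3.16%, and Krt16 10.2% and 4.14%. On this scale the ratio of Krt6a was 0.516, short of 2-fold. Krt17 took 2.89% and 4.87%, and so was higher here as well. Krt5 and Krt14, the basal pair, went from 48.9% to 69.3%, and the suprabasal pair Krt1 and Krt10 went from 10.7% to 4.35%. Keratin genes together made up 4.10% and 3.76% of all counts.

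**Figure D2:**
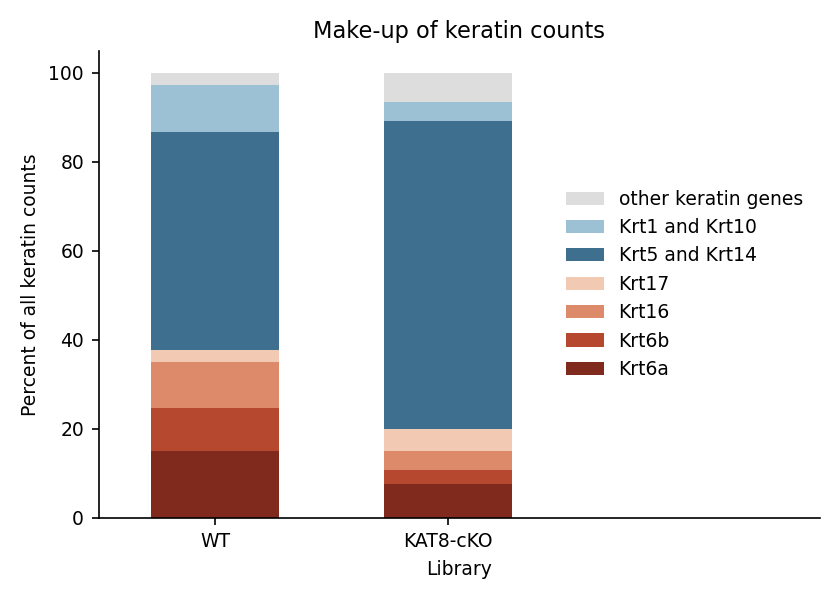
Stacked bars give the percent of all keratin counts taken by each stress keratin, by the basal pair Krt5 and Krt14, by the suprabasal pair Krt1 and Krt10 and by the other keratin genes, in 1 library per label. The 4 stress keratins together fill 37.8% of the bar for the WT-labelled library and 19.9% of the other, and the basal pair fills 48.9% and 69.3%.

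Among the other keratins, the suprabasal pair Krt1 and Krt10 was among the genes with ratios most like the members. The likeness was the distance between a gene's log2 ratio and the members' median of -1.41, over 2 libraries and 14 keratin genes with at least 5 CPM in either. The nearest were Krt1 (log2 ratio -1.39), Krt23 (-1.12), Krt10 (-1.81), Krt77 (-1.94) and Krt24 (-0.39). Krt1 went from 2431 to 924 CPM and its partner Krt10 from 2196 to 624 CPM, 2.63-fold and 3.52-fold lower. Krt2, a keratin of late suprabasal cells, had 835 and 793 CPM.

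Set against the summed counts of Krt1 and Krt10, the stress keratins looked different from each other. The ratio of the libraries was 1.27 for Krt6a, 0.999 for Krt16, 0.788 for Krt6b and 4.14 for Krt17. Set against Krt5 and Krt14, the ratios were 0.364, 0.287, 0.226 and 1.19 in the same order. The stress keratins other than Krt17 were thus lower against this basal pair, but not as a group against Krt1 and Krt10. Krt2, with a ratio of 0.951, did not follow Krt1 and Krt10, so the result does not extend to it. Krt17 was higher against the summed counts of both pairs. Its own ratio of 1.38 was above that of Krt14 (0.959) but below that of Krt5 (1.47), so it was not higher against Krt5 alone. The comparison with Krt1 and Krt10 was added after the values had been seen.

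**Figure D3:**
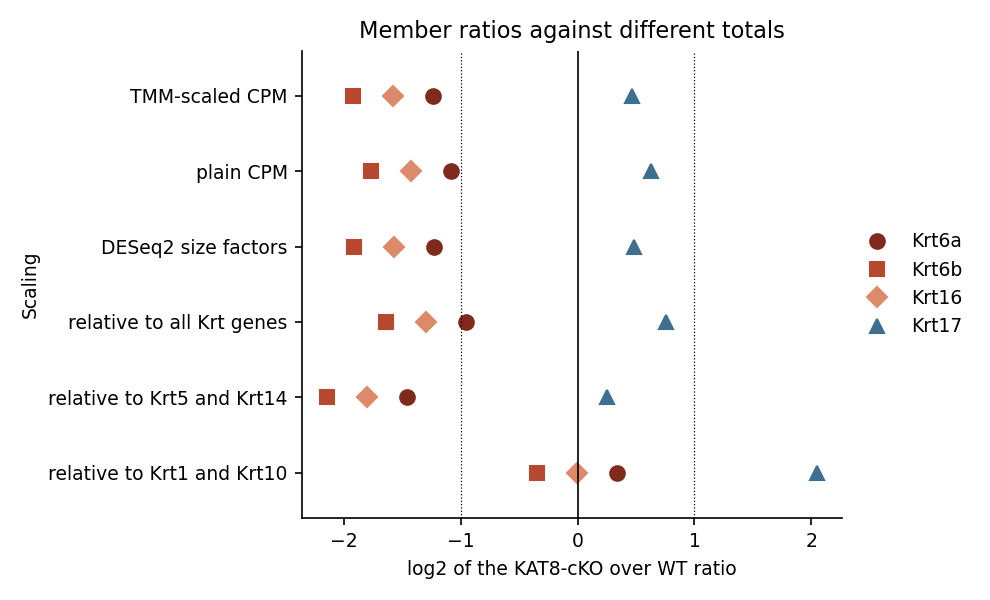
Points give log2 of the ratio between the KAT8-cKO-labelled library and the WT-labelled library for each stress keratin, with counts set against 6 different totals (rows). Dotted lines mark 2-fold. Krt17 lies right of 0 in every row, and the other 3 lie left of 0 in every row but that against Krt1 and Krt10. In that row Krt6a lies right of 0 (ratio 1.27), Krt16 almost at 0 (0.999) and Krt6b left of 0 (0.788).

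The keratins with the largest log2 ratios upward, Krt79 and Krt15, are made in glands, follicles and basal cells. Of 24 keratins of epidermis, glands and simple epithelia, 22 were measured, with 9 higher and 5 lower (median log2 ratio 0.12, or -0.23 with a filter of 5 CPM). Among all measured genes, 4.56% were higher and 8.63% lower. Of the 9 higher keratins, only Krt79 and Krt15 reached 5 CPM in either library, so most of this count rests on genes with few counts. Krt79, a keratin of the sebaceous duct and upper follicle, went from 109 to 1048 CPM (9.65-fold higher, interval 9.11 to 10.2). Krt15, a keratin of basal cells and of the follicle bulge, went from 47.5 to 322 CPM (6.77-fold higher). In the other direction, Krt78 was 6.70-fold lower (335 and 63 counts) and Krt77 6.98-fold lower (72 and 13 counts). Of 20 hair and root sheath keratins, 5 were measured, with 1 higher and 1 lower (median 0.56, or -0.48 with a filter of 5 CPM). The higher one was Krt75, the type II keratin of the companion layer (51 and 213 counts, 3.32-fold), and the lower one was Krt83, a hair cortex keratin (124 and 16 counts, 9.76-fold).

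**Figure D4:**
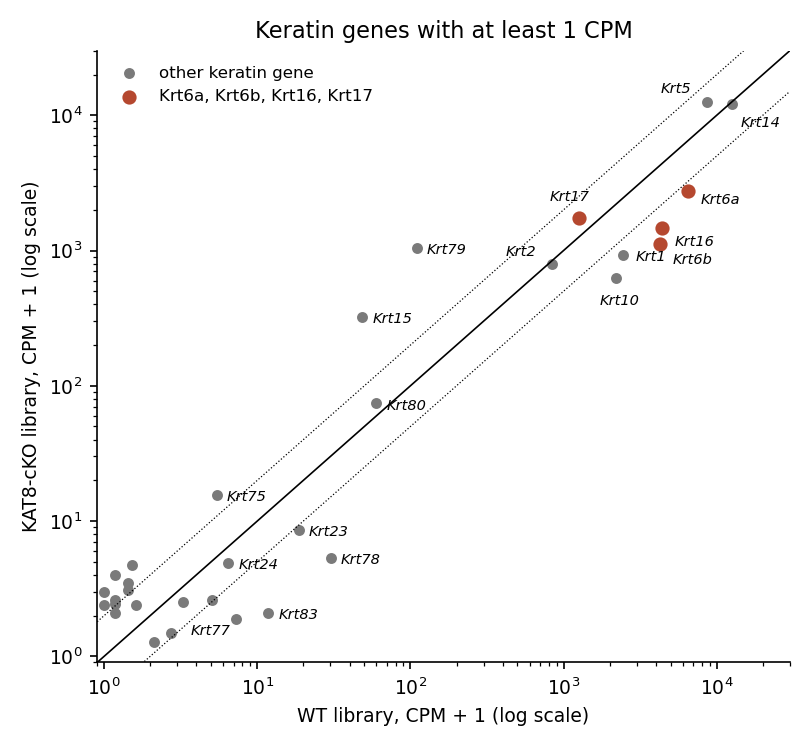
Each point is a keratin gene with at least 1 CPM in either library, plotted by CPM + 1 in the WT-labelled library (x axis) and in the KAT8-cKO-labelled library (y axis), both on log scales. The solid line marks equal values and the dotted lines 2-fold. Krt6a, Krt6b and Krt16 lie below the lower dotted line beside Krt1 and Krt10, and Krt17 lies between the lines on the side of Krt5.

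Markers of the cells that make these keratins moved in the same libraries. Among all measured genes, 8.63% were lower and 4.56% higher. Suprabasal and cornified markers were lower in 8 of 12 cases and higher in none, with summed levels of 9374 and 4150 CPM. Of these sums, Krt1 and Krt10 made up 4627 and 1547 CPM. Basal markers were higher in 2 of 10 cases and lower in none (23222 and 28003 CPM, of which Krt5 and Krt14 made up 21189 and 24678). The sums of these lists thus largely repeat keratins given above. The higher basal markers include Krt15, which is also in the list that follows. Outer root sheath and companion layer markers were higher in 6 of 10 cases (345 and 1072 CPM, led by Postn and Krt15, of which Postn is also a fibroblast gene). Sebaceous markers were higher in 11 of 13 measured cases (2261 and 9278 CPM, led by Scd1 and Krt79). None of the genes in these 4 lists was at 0 counts in either library. Inner root sheath and hair shaft markers were low in both, at 28.2 and 25.2 CPM in sum. Their part in the lower Krt6a, Krt6b and Krt16 and the higher Krt17 was not tested.

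Tissue outside the epidermis differed as well. Skeletal muscle markers were lower in 12 of 12 cases (14849 and 2996 CPM), adipocyte markers in 7 of 10 with 1 higher (2965 and 451 CPM) and red cell markers in 6 of 6 (172 and 9.03 CPM). Neutrophil markers were lower in 8 of 10 measured cases (14041 and 5083 CPM, most of it S100a8 and S100a9, which keratinocytes also express), and monocyte and macrophage markers in 6 of 10. T cell markers were higher in 3 of 8, cartilage markers in 5 of 7, fibroblast markers in 1 of 10 with 2 lower, and endothelial markers in none of 8. Among all measured genes, 8.63% were lower and 4.56% higher, so the fibroblast and endothelial counts do not set those lists apart. The higher T cell markers had few counts, at most 36 and 109 for Cd3g. Trbc2, the most abundant T cell marker measured, had 193 and 182 counts (ratio 0.749). The shares within keratin counts and the ratios against Krt5 and Krt14 do not use these counts.

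Signals known to act on stress keratins include ligands of the EGF receptor and cytokines of the IL-1, IL-6, IL-17, IL-20 and related families. As a list they were more often lower than higher, but not in each family. Of 21 listed, 18 were measured, with 10 lower and 1 higher (median log2 ratio -1.03, against 0.01 for all genes). Among all measured genes, 8.63% were lower and 4.56% higher. Il1a and Il1b, which encode IL-1, were 5.76-fold lower (64.3 and 11.2 CPM) and 4.57-fold lower (1238 and 271 CPM). Among the EGF receptor ligands, Ereg, which encodes epiregulin, was 5.33-fold lower (516 and 122 counts). The single higher gene was Il17f, an IL-17 cytokine of T cells, with 20 and 153 counts (6.07-fold, interval 3.80 to 10.2). These signals thus did not go in 1 direction. Myeloid cells also make IL-1, and the monocyte and macrophage markers were at 2678 and 1041 CPM. Much of that sum was Cd14 (882 and 164 CPM) and Lyz2 (940 and 376 CPM). Of the 10 markers, 6 were lower and 4 stayed within 2-fold, so the sum does not stand for the whole list.

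The receptors differed less. Of 18 measured, 2 were higher and 1 lower (median 0.39), beside 4.56% higher and 8.63% lower among all measured genes. Counts this small do not set the list apart from all genes. Il20ra, a receptor chain for IL-20 family cytokines, had 47 and 211 counts (3.56-fold higher) and Fgfr2, a receptor for keratinocyte growth factor, 487 and 1434 counts (2.34-fold higher). Il1rap, the shared accessory chain of IL-1 and IL-36 receptors, was 2.32-fold lower (1244 and 675 counts).

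Transcription factors linked to stress keratin genes split. Of 25 measured, 6 were lower and 3 higher (median -0.17, or -0.0055 with plain CPM). Among all measured genes, 8.63% were lower and 4.56% higher, and a count of 3 is small. Subunits of AP-1, a factor that injury and growth signals activate, led the lower ones. Fosb was 7.04-fold lower (391 and 70 counts), Fos 4.78-fold lower (289 and 60.6 CPM) and Jun 2.80-fold lower (369 and 132 CPM). Other AP-1 subunits were named after their values were seen. Fosl1 was 2.41-fold lower, while Junb, Jund and Fosl2 stayed within 2-fold (ratios 0.603, 0.854 and 0.891). On the higher side, Gli1, a target and effector of hedgehog signalling, which is active in hair follicles, had 33 and 138 counts (3.32-fold higher, interval 2.26 to 5.01).

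Genes of activated and late differentiating keratinocytes that are often read together with Krt6 and Krt16 were lower as a list. Of 34 listed, 33 were measured, with 26 lower and none higher (median -1.36), against 8.63% lower and 4.56% higher among all measured genes. Il1f6, which encodes IL-36 alpha, was 7.19-fold lower (907 and 159 counts), and Defb4, an antimicrobial peptide gene, 6.61-fold lower (215 and 41 counts). Sprr1b, a precursor of the cornified envelope, went from 957 to 170 CPM (5.63-fold lower), and the protease inhibitor gene Serpinb2 from 403 to 72.4 CPM (5.57-fold lower). Neutrophils and other myeloid cells also express S100a8, S100a9, Lcn2, Slpi, Stfa1, Stfa3 and Plaur of this list. Neutrophil markers were at 14041 and 5083 CPM, but S100a8 and S100a9 made up most of this sum, so it is not a separate measure. Without these 7 genes, set aside after the values were seen, 21 of 26 were lower and none higher (median -1.34). The 3 lower stress keratins and the median of this list lay on the same side of the median of all genes, and Krt17 lay on the other.

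Genes for proteins that bind or anchor keratin filaments mostly stayed within 2-fold. Of 20 listed, 19 were measured, with 5 lower, 1 higher and 13 within 2-fold (median -0.25). Among all measured genes, 8.63% were lower and 4.56% higher, so the single higher gene does not set the list apart. The lowest were Rptn (16.4-fold lower, 2806 and 215 counts), Hrnr (7.48-fold lower) and Flg (5.55-fold lower), filaggrin-type proteins of the outer layers. Pof1b, an actin-binding protein of epithelia, followed (3.29-fold lower). Flg2 and Tchh, also of the filaggrin type, stayed within 2-fold (ratios 0.945 and 0.604). The higher gene was Plec, which encodes plectin (3844 and 11000 counts, 2.27-fold). Flg2, Tchh and Plec were named after their values were seen. Dsp, the desmosomal protein to which keratins attach, was named after its value was seen and had 1493 and 1485 CPM.

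Cell cycle genes did not follow Krt16. All 25 stayed within 2-fold, with a median log2 ratio of 0.32. Mki67, a marker of cycling cells, had 267 and 299 CPM (ratio 1.12, interval 1.07 to 1.17) and Top2a, a topoisomerase of dividing cells, 182 and 249 CPM (ratio 1.37). Both were above 1, while Krt6a, Krt6b and Krt16, keratins read as signs of hyperproliferation, were below it.

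**Figure D5:**
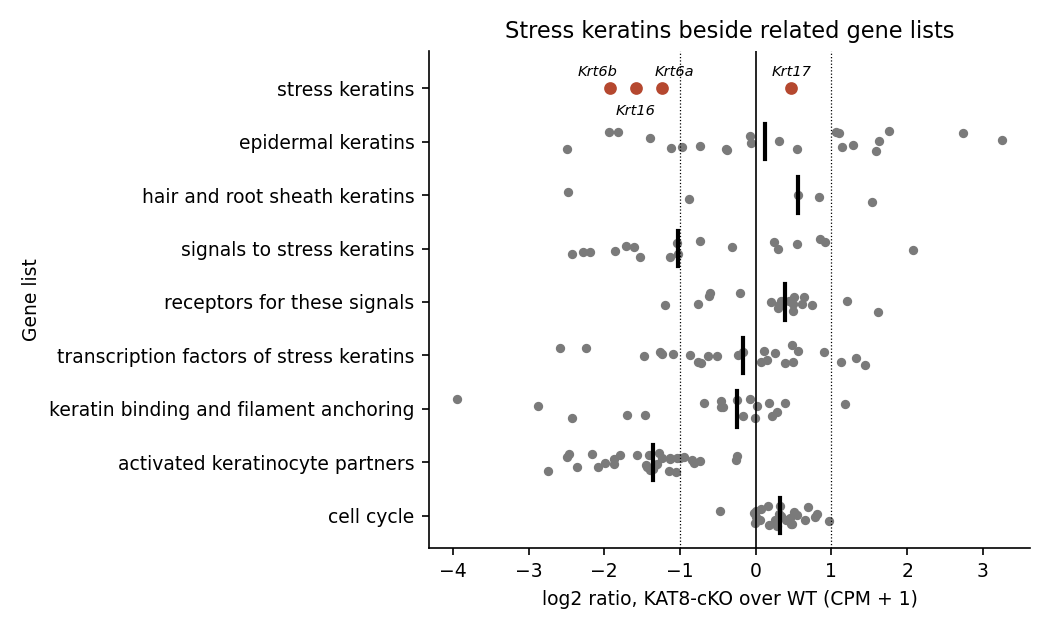
Each grey point is a measured gene of a list of related genes, placed by its log2 ratio between the KAT8-cKO-labelled library and the WT-labelled library (CPM + 1), and the black bars are list medians. Dotted lines mark 2-fold. The stress keratins (top row) fall at -1.92 to -1.24 for Krt6b, Krt16 and Krt6a and at 0.47 for Krt17, beside medians of -1.36 for activated keratinocyte partners and 0.32 for cell cycle genes.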

How the data were processed

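The authors deposited raw counts per Ensembl gene, whole numbers without normalization, for 2 libraries of ear skin. Per the submitters' processing notes, HISAT2, StringTie 1.3.0, edgeR and mm10 were used, with no roles stated. The counting tool, annotation release, strand setting and read length are not stated in the sources used here.

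Symbols, coordinates and exon lengths came from GENCODE M21 (GRCm38, the assembly of mm10). A symbol was found for 34344 genes, and the other 401 stayed in the totals. Printed sequences are from the GENCODE M21 transcripts. Coding sequences were aligned with Biopython 1.88. RefSeq promoter entries matched 0 of 4 members.

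Totals were multiplied by TMM factors from edgeR 4.0.16 (0.946 for WT, 1.06 for KAT8-cKO), which made 1 count equal to 0.0868 and 0.0689 CPM. Folds are plain CPM ratios with exact (Clopper-Pearson) 95% intervals, which cover counting error only, since without molecular identifiers a read is not an independent molecule. Log2 ratios and the 2-fold rule used a pseudocount of 1 CPM, which understates differences of low genes, and genes that reached 1 CPM in either library. Lower bounds used a floor of 3 counts in a library. With 1 library per group no test was run. The calculations were tested on simulated data.

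The members and gene lists were chosen with earlier results of these data known. From each list of related genes, the text names up to 4 members with the largest log2 ratios past 2-fold, or, where fewer than 2 passed, the 2 most abundant. Marker lists name up to 2 by level. The keratins nearest the members' median and any keratin of the epidermal list could also be named.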

Additional observations from a re-analysis of the deposited data

How the results depend on the processing

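There was 1 library per label, so no replicate could be left out, and no paired analysis was possible because each group held a single sample. The direction of all 4 members was the same with DESeq2 size factors, plain CPM, upper quartile scaling, a total without mitochondrial genes, a pseudocount of 1 CPM and totals over Krt5 and Krt14 or over all keratin genes. For Krt6a, Krt6b, Krt16, Krt17 and the sum of all 4 (main ratios 0.424, 0.264, 0.334, 1.38 and 0.431), the ratios were 0.474, 0.295, 0.374, 1.55 and 0.482 with plain CPM. They were 0.467, 0.290, 0.368, 1.53 and 0.475 without mitochondrial genes, and 0.364, 0.226, 0.287, 1.19 and 0.370 against Krt5 and Krt14. Totals chosen after seeing the data gave 0.516, 0.321, 0.407, 1.69 and 0.525 against all keratin genes, so that Krt6a no longer reached 2-fold. Against Krt1 and Krt10 they gave 1.27, 0.788, 0.999, 4.14 and 1.29, which turned the direction of Krt6a and of the sum. Those 2 keratins were themselves 2.99-fold lower. DESeq2 size factors gave 0.435 for the sum. Adding the counts of the related genes Gm5478 and Gm5414, likewise chosen afterwards, gave 0.270 for Krt6b. Within the members plus Krt1, Krt5, Krt10 and Krt14, stress keratins took 38.8% in the WT-labelled library and 21.2% in the other. Plain CPM moved the median log2 ratio of all genes from 0.01 to 0.16 and the counts of genes past 2-fold from 695 higher and 1315 lower to 964 and 1056. With no filter that median was -0.0072. Over the lists of related genes, 17 genes were higher and 53 lower, and with a filter of 5 CPM 9 were higher, since fewer genes are measured. That filter also turned the medians of epidermal keratins (-0.23) and of hair and root sheath keratins (-0.48). At this depth, keratins with few counts, such as Krt13 with 2 and 21, have wide counting intervals.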

Other observations

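Several keratins of simple and mucosal epithelia, at levels far below the stress keratins, had more counts in the KAT8-cKO-labelled library. Krt4 and Krt13, the pair of mucosal suprabasal cells, had 0 and 29 counts (at least 7.67-fold higher against a floor of 3 counts, with a lower limit of 5.85 by the exact interval) and 2 and 21 counts (ratio 8.34, interval 2.04 to 73.3). Krt8, a type II keratin of simple epithelia, had 2 and 43 counts (ratio 17.1, interval 4.45 to 145), while its usual partner Krt18 had 47 and 23 (ratio 0.388, interval 0.225 to 0.653). Krt19 had 2 and 23 counts and Krt7 had 5 and 36. Krt20, also a keratin of simple epithelia, went the other way with 9 and 2 counts, below 1 CPM in both libraries. Apart from this group, Krt42, the gene next to Krt17 on chromosome 11, had 6 and 54 counts (ratio 7.14, interval 3.08 to 20.3). None of these genes reached 5 CPM in either library.

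A pair of genes on chromosome 15 that share stretches with Krt6a and Krt6b, namely Gm5478 and Gm5414, had ratios close to that of the Krt6 sum. Gm5478 had 2092 and 930 counts (2.83-fold lower) and Gm5414 2026 and 891 (2.86-fold lower), beside 2.78-fold for Krt6a and Krt6b together. These genes were named after their values were seen.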
